A study of Mus musculus with 96 samples.

Results

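A set of 10 genes that mark macrophages entering the brain from blood or living at its borders was followed across 96 bulk RNA libraries of mouse brain. They are Lyz2, Ccr2, Cybb, Msr1 and Cd5l, which mark monocytes and inflamed macrophages, and Mrc1, Cd163, Lyve1, Pf4 and Ms4a7, which mark macrophages of the meninges, perivascular spaces and choroid plexus. The genes were chosen by symbol, and all 10 were present, with 1 row each among the 32594 genes of the deposited tables. Each gene was read in 3 regions, the hippocampus, thalamus and hypothalamus of the injured side, at 3 and 29 days post-injury (dpi).

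Male C57BL/6 mice aged 8 to 10 weeks received a controlled cortical impact over the left cortex after craniectomy (TBI) or a sham procedure. Sham mice had isoflurane and a skin incision but no craniectomy, so injury and craniectomy cannot be told apart in these groups. Sham and injured mice were given either vehicle (groups Sham + VH and TBI + VH) or candesartan at 0.1 mg/kg per day (groups Sham + CD and TBI + CD), a drug that blocks the type 1 angiotensin II receptor. All mice had a first intraperitoneal dose at 6 h; the 3 dpi mice had further doses at 24 and 48 h, and the 29 dpi mice had an osmotic pump placed at 24 h, so that time point and route differed together. Brains were perfused with saline. Each of the 24 combinations of region, time and group had 4 libraries, and nothing in the labels says whether the 3 regions came from the same animals.

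Monocytes circulate in blood and enter injured brain through the chemokine receptor encoded by Ccr2, after which they differentiate into macrophages that take up dead cells, lipids and haemoglobin. Border-associated macrophages are long-lived cells that sit outside the parenchyma and carry scavenger and mannose receptors. Microglia, the macrophages inside the parenchyma, share many genes with both, and can themselves express Lyz2, Cybb and Msr1 when activated. In bulk tissue, fewer cells of a type and less RNA per cell cannot be told apart, nor can RNA from microglia and from other macrophages where both express a gene.

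Promoter windows of 300 bases (250 before to 50 after the annotated start) were available from RefSeq (GRCm38.p6) for 8 of the 10 genes, in 9 windows, 2 of them for Ms4a7. They were searched on both strands for 3 motifs, without any test. GAGGAA holds the letters of the core of a PU.1 site, the factor that macrophages depend on. TGANTCA is the AP-1 site TGACTCA or TGAGTCA with any base allowed at its centre. The core of an interferon response element was searched as GAAA repeated after any 2 bases. GAGGAA was present in windows of 5 of the 8 genes (Cybb, Cd5l, Mrc1, Pf4 and Ms4a7) and in 28.3% of 32851 windows of the same length genome-wide. TGANTCA was present in windows of Cybb (as TGAATCA) and Ms4a7 (as TGATTCA) and in 7.81% of all windows. Neither of these matches has the C or G of an AP-1 site at its centre. The GAAA repeat was present in the window of Cybb alone and in 3.44% of all windows. Below are an oxidase subunit and a scavenger protein that rose after injury (Cybb, Cd5l), the window with the most GAGGAA matches (Mrc1, 3 matches), and that of the gene with the highest level (Lyz2, no match). GAGGAA or its reverse complement is in capitals, all else is in lower case, and each sequence runs 5′ to 3′ on the gene's own strand.
Cybb, chrX:9469275-9469574, minus strand: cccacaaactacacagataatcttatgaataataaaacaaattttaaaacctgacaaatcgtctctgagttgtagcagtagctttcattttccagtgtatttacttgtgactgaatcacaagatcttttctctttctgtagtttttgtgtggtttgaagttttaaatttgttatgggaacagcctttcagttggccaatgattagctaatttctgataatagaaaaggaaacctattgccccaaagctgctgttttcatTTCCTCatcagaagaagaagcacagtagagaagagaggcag
Cd5l, chr3:87357631-87357930, plus strand: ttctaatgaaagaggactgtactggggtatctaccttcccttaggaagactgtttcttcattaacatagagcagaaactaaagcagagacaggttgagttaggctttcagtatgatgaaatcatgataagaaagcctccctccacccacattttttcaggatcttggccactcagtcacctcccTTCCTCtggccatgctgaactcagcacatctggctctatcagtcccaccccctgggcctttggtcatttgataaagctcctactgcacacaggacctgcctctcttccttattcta
Mrc1, chr2:14229164-14229463, plus strand: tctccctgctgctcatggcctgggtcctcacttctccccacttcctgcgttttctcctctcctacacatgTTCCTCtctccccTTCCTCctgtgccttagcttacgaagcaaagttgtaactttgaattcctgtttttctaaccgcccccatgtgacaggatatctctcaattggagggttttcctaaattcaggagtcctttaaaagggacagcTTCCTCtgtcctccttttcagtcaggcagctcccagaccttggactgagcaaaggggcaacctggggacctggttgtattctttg
Lyz2, chr10:117282223-117282522, minus strand: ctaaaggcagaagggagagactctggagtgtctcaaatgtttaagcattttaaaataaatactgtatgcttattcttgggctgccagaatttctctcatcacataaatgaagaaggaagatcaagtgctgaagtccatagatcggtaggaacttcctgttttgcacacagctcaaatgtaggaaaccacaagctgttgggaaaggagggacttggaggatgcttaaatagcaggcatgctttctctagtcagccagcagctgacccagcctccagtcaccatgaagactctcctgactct
The Cybb window follows the RefSeq start, which lies inside the longer gene of the GENCODE annotation used for the positions below. These matches describe the letters of the windows and say nothing of binding in these samples.

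Library totals ran from 17150610 to 31253784 counts at 3 dpi and from 6663629 to 38589791 counts at 29 dpi. No 2 replicates agreed within sampling noise (chi-square per degree of freedom 2.64 to 48.1 over 144 pairs). The summed level of hippocampal neuron genes was 470 to 860 CPM (counts relative to the scaled library total) in hippocampus libraries and 132 to 214 CPM in the other regions, and that of thalamic neuron genes was 1337 to 2724 CPM in thalamus libraries against at most 497 CPM elsewhere. Hypothalamic neuron genes summed to 493 to 1543 CPM in hypothalamus libraries and reached 649 CPM in 1 thalamus library. Levels below are CPM scaled by TMM factors over all libraries. Fold changes come from edgeR's quasi-likelihood test over all genes of a region and time, with the standard error (SE) and the Benjamini-Hochberg false discovery rate (FDR). The study's own limits served for a call, an FDR under 0.05 and a log2 fold change of more than 0.32 in size.

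In the hippocampus at 3 dpi, the comparison of TBI + VH with Sham + VH asked how the injury itself moved the 10 genes. All 5 monocyte and inflamed macrophage genes rose, and 2 of the 5 border macrophage genes, Ms4a7 and Cd163, rose with them. Thus 7 of 10 were called, all higher, where 10.7% of the 16756 genes tested were called in either direction. Choroid plexus epithelium genes were lower in TBI + VH (median log2 fold change -4.93), and with their level as a covariate 3 of the 10 genes were called, the calls of Msr1, Cd5l, Ms4a7 and Cd163 being lost. The log2 fold changes in that fit were 3.09 ± 0.97 for Msr1, 1.87 ± 0.91 for Ms4a7 and 0.79 ± 0.33 for Cd163, against 4.43 ± 0.78, 2.33 ± 0.59 and 0.73 ± 0.22 without the covariate. The part of choroid plexus content in these results was not tested beyond that fit. The filter on low counts asked for 0.405 CPM in 4 libraries of any kind, and Cd5l, Ccr2 and Msr1 passed it through the injured libraries, with no sham library over that level. These 3 had to differ to be tested, so the count of 7 and their FDRs are a description; of the other 7 genes, Lyz2, Cybb, Ms4a7 and Cd163 were called. Without the filter 6 of the 10 were called, those 3 among them, and 7.66% of all genes. The 5 border genes had a median log2 fold change of 0.73, against -0.01 over all genes tested.

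Lyz2 (chr10:117277331-117282321, GRCm38, minus strand) encodes lysozyme of myeloid cells, which cleaves bacterial cell walls. Replicates 1 to 4 of the Sham + VH hippocampus at 3 dpi held 6.43, 7.45, 6.22 and 10.1 CPM. In TBI + VH it was 131, 31.2, 124 and 91.1 CPM. Every injured library lay above every sham library, and replicate 2 was the lowest of the injured ones. The log2 fold change was 3.68 ± 0.40 (SE, n = 4 per group, edgeR FDR 6.4e-06). Its paralogue Lyz1 lies 5475 bases away, and the counting rule for reads shared between such copies is not given in the sources used here, so the split between them is uncertain.

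Ccr2 (chr9:124101950-124113557, plus strand) encodes the receptor that monocytes use to leave marrow and enter tissue. Sham + VH libraries held 0.127, 0, 0 and 0.155 CPM and TBI + VH libraries 1.51, 0.695, 1.22 and 0.838 CPM. The groups did not overlap, and both sham libraries at 0 had no read of the gene. Its log2 fold change was 3.81 ± 0.58 (SE, n = 4 per group, edgeR FDR 0.00018).

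Cybb (chrX:9435252-9487771, minus strand) encodes the membrane subunit of the phagocyte NADPH oxidase, which makes superoxide. It stood at 0.507, 0.887, 0.569 and 0.426 CPM in Sham + VH and at 3.79, 1.18, 5.79 and 3.54 CPM in TBI + VH. Replicate 2 of the injured group again was the lowest, and still above every sham library. On the log2 scale the rise was 2.64 ± 0.44 (SE, n = 4 per group, edgeR FDR 0.00041).

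Msr1 (chr8:39581685-39642673, minus strand) encodes the class A scavenger receptor, which takes up modified lipoproteins. It was measured at 0.0846, 0.177, 0.0876 and 0.271 CPM in Sham + VH and at 4.61, 0.908, 4.79 and 3.20 CPM in TBI + VH, with no overlap. The rise on the log2 scale was 4.43 ± 0.78 (SE, n = 4 per group, edgeR FDR 0.00068).

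Cd5l (chr3:87357881-87371073, plus strand) encodes a secreted protein of tissue macrophages that binds lipids and cell debris. No Sham + VH library of the hippocampus at 3 dpi held a read of it, and the TBI + VH libraries held 111, 12, 195 and 82 counts, or 4.78, 0.641, 7.23 and 3.12 CPM. Against a floor of 3 counts over the sham group, the pooled level was at least 133-fold higher (edgeR FDR 0.0013 over n = 4 libraries per group, for a gene that passed the filter through the injured libraries alone).

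Among the border macrophage genes, Ms4a7 (chr19:11321039-11336146, minus strand), a membrane protein gene of border and monocyte-derived macrophages, stood at 0.507, 0.177, 0.263 and 0.581 CPM in Sham + VH and at 2.71, 0.321, 3.08 and 1.45 CPM in TBI + VH. Replicates 1, 3 and 4 of the injured group exceeded every sham library and replicate 2 lay among the sham ones. The log2 fold change was 2.33 ± 0.59 (SE, n = 4 per group, edgeR FDR 0.012), and without TBI + VH replicate 3 the FDR was 0.053. Reads shared with other Ms4a genes could not be separated here.

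Cd163 (chr6:124304656-124330527, plus strand), the receptor for haemoglobin bound to haptoglobin, was measured at 0.465, 0.71, 0.832 and 0.968 CPM in Sham + VH and at 1.46, 1.07, 1.08 and 1.22 CPM in TBI + VH. The groups did not overlap although the gap between them was narrow. Its log2 fold change came to 0.73 ± 0.22 (SE, n = 4 per group, edgeR FDR 0.037), and the call was lost on leaving out any 1 of 5 of the 8 libraries (FDR 0.022 to 0.13 over all 8 fits).

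Mrc1 (chr2:14229392-14332057, plus strand), the mannose receptor, stood at 2.62, 2.22, 1.93 and 3.83 CPM in Sham + VH and at 5.21, 3.69, 4.34 and 4.0 CPM in TBI + VH. Sham replicate 4 lay above the lowest injured library. The log2 fold change of 0.73 ± 0.26 did not pass (SE, n = 4 per group, edgeR FDR 0.075), and it passed without Sham + VH replicate 4 (0.97, FDR 0.025). The microRNA gene Mir511 lies within Mrc1 on the same strand.

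Pf4 (chr5:90772435-90773383, plus strand), a chemokine of platelets and of border macrophages, was at 0.380, 0.444, 0.613 and 0.658 CPM in Sham + VH and at 1.25, 0.801, 0.928 and 0.762 CPM in TBI + VH. These values did not overlap, yet the log2 fold change of 0.86 ± 0.37 did not pass (SE, n = 4 per group, edgeR FDR 0.16).

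Lyve1 (chr7:110850607-110863239, minus strand), a hyaluronan receptor of perivascular macrophages and lymphatic vessels, was at 0.507, 0.621, 0.482 and 0.503 CPM in Sham + VH and at 0.646, 0.321, 0.705 and 0.419 CPM in TBI + VH. The injured libraries lay on both sides of the sham ones, with a log2 fold change of 0.04 ± 0.38 (SE, n = 4 per group, edgeR FDR 0.97). By group, 7 of the 10 genes had every TBI + VH library above every Sham + VH library, against 10.3% of all genes tested. Cd5l, Ccr2 and Msr1, which passed the filter through the injured libraries, are among the 7, so that count too is a description.

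**Figure D1:**
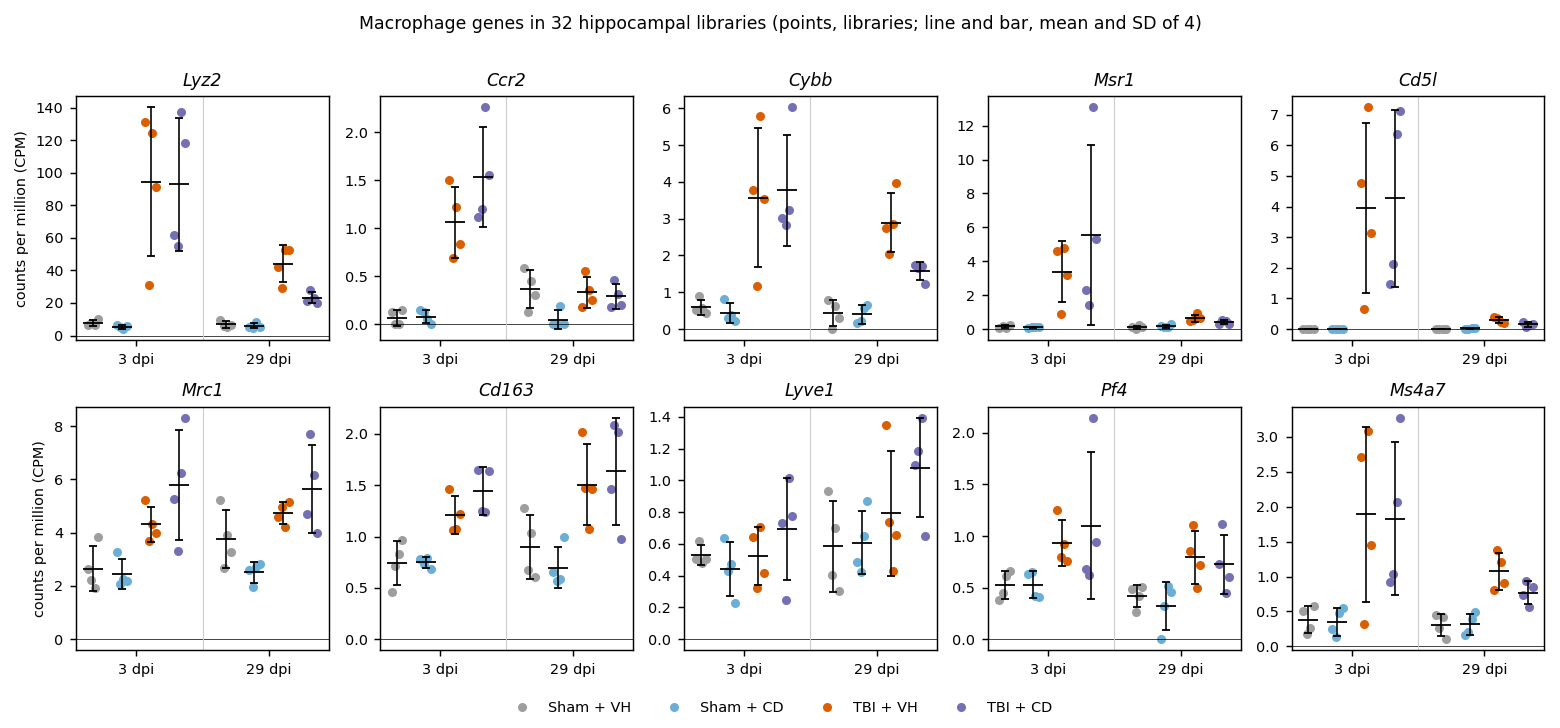
Level of each of the 10 genes in single hippocampus libraries (points, CPM on a linear axis) by group and time after injury. At 3 dpi Lyz2 in TBI + VH sat between 31.2 and 131 CPM, above all Sham + VH libraries (6.22 to 10.1 CPM), whereas Lyve1 overlapped between the groups.

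Per kilobase of exon, which allows genes to be set beside each other, Lyz2 had the highest mean level among the 10 genes in both groups, 5.73 CPM per kb in Sham + VH and 71.7 in TBI + VH. In the sham hippocampus it was followed by Pf4 (0.727 CPM per kb) and Mrc1 (0.416), and in the injured one by Cd5l (1.94) and Pf4 (1.30). Ccr2 had a low level per kb throughout, 0.010 in Sham + VH and 0.158 in TBI + VH. These are mean levels of 4 libraries, and the order was not tested.

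Replicate 2 of TBI + VH was the lowest of its group for 9 of the 10 genes, where 29.7% of all genes were lowest in that library. It also had the lowest summed level of 10 genes common to all macrophages, 774 CPM against 985 to 1267 CPM in the other injured libraries. Without it, 7 of the 10 genes were called, and 11.8% of all genes.

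**Figure D2:**
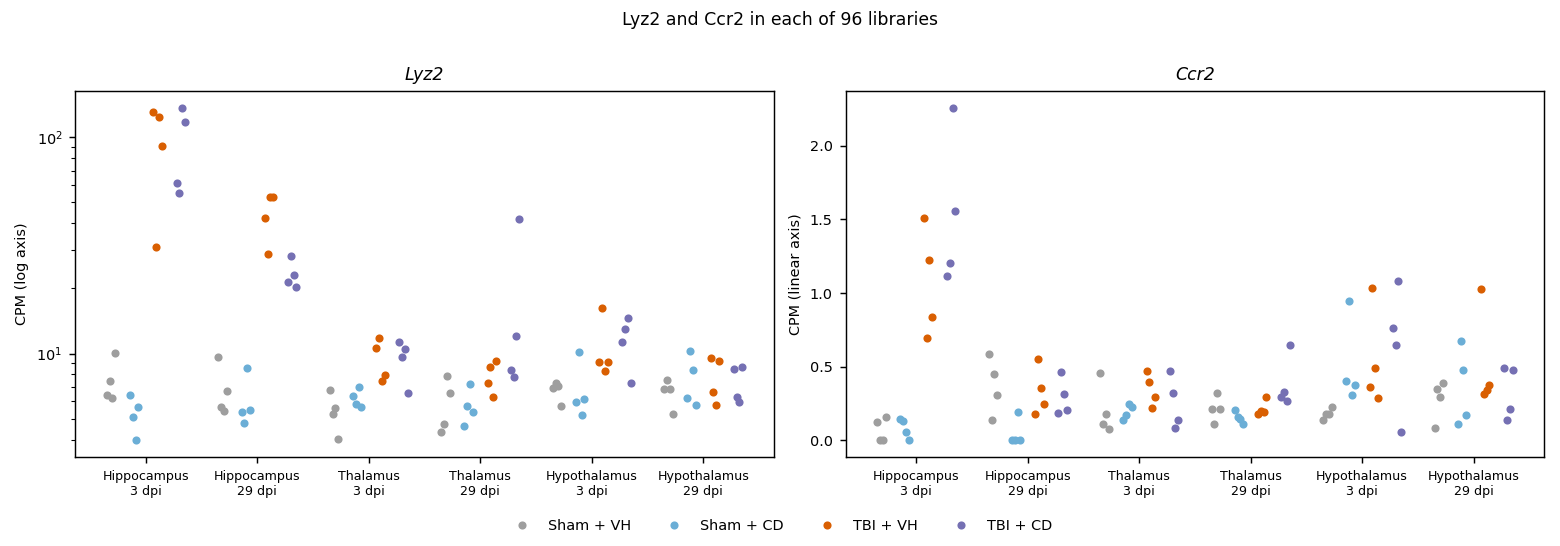
Lyz2 (CPM on a log axis) and Ccr2 (CPM on a linear axis) in every library (points) of the 3 regions, 2 times and 4 groups. Lyz2 rose in the injured hippocampus at both times, from 5.41 to 9.61 CPM in Sham + VH to 28.9 to 52.8 CPM in TBI + VH at 29 dpi, whereas Ccr2 overlapped between those groups at 29 dpi.

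At 29 dpi, the same comparison asked which of these changes persisted in the hippocampus. Of the 9 genes tested, Lyz2 and Cybb were called, both higher, where 0.529% of 16832 genes were called. Ccr2, Ms4a7 and Msr1 would not have passed the filter on the sham libraries alone. All TBI + VH libraries lay above all Sham + VH libraries for 5 of the 10 genes, against 2.44% of the genes tested. Cd5l, which was not tested, is among the 5, and so are Msr1 and Ms4a7, so that count is a description.

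Lyz2 was measured at 9.61, 5.65, 5.41 and 6.72 CPM in Sham + VH and at 42.3, 28.9, 52.7 and 52.8 CPM in TBI + VH at 29 dpi. The injured libraries were close to each other and apart from the sham ones, with a log2 fold change of 2.67 ± 0.23 (SE, n = 4 per group, edgeR FDR 1.4e-05). Cybb was at 0.795, 0, 0.616 and 0.306 CPM in Sham + VH and at 2.74, 2.03, 2.85 and 3.96 CPM in TBI + VH, again without overlap. Its log2 fold change was 2.44 ± 0.40 (SE, n = 4 per group, edgeR FDR 0.0048).

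Msr1 stood at 0.138, 0, 0.224 and 0.102 CPM in Sham + VH and at 0.449, 0.553, 0.927 and 0.655 CPM in TBI + VH at 29 dpi. The groups did not overlap, and the log2 fold change of 2.03 ± 0.44 missed the threshold (SE, n = 4 per group, edgeR FDR 0.051). Ms4a7 stood at 0.450, 0.269, 0.420 and 0.102 CPM in Sham + VH and at 0.808, 1.38, 1.21 and 0.905 CPM in TBI + VH, also without overlap (log2 fold change 1.52 ± 0.35, SE, n = 4 per group, edgeR FDR 0.067).

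Ccr2 stood at 0.588, 0.134, 0.448 and 0.306 CPM in Sham + VH and at 0.180, 0.553, 0.357 and 0.250 CPM in TBI + VH at 29 dpi. The injured libraries lay within the sham range, with a log2 fold change of -0.50 ± 0.58 (SE, n = 4 per group, edgeR FDR 0.94). Cd5l was too low to be tested; the injured libraries held 9, 4, 3 and 6 counts and the sham libraries none, so that the pooled level was at least 7.58-fold higher over the floor of 3 counts per group. The other border genes did not pass, with log2 fold changes of 0.64 ± 0.30 for Cd163 (FDR 0.62), 0.83 ± 0.40 for Pf4 (FDR 0.64), 0.28 ± 0.22 for Mrc1 (FDR 0.86) and 0.29 ± 0.38 for Lyve1 (FDR 0.96).

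The difference between times was tested in 1 edgeR fit of the 32 hippocampus libraries, as the injury response with vehicle at 3 dpi minus that at 29 dpi. Of the 10 genes, 1 was called, Ccr2, where 3.16% of 17181 genes were called. The difference for Ccr2 was 4.30 ± 0.87 on the log2 scale (FDR 0.0032), and it remained called on leaving out each library in turn (3.93 to 4.99). Both groups enter it. TBI + VH held 0.695 to 1.51 CPM of Ccr2 at 3 dpi and 0.180 to 0.553 CPM at 29 dpi. Sham + VH held 0 to 0.155 CPM at 3 dpi and 0.134 to 0.588 CPM at 29 dpi. The difference is thus not a fall in the injured level alone, and the shift in the sham level was not tested. Ccr2 passed the filter of this fit with 10 injured and 2 sham libraries over its level, fewer sham libraries than the 4 required, so its call is a description too. For Lyz2 the difference was 1.01 ± 0.49 (FDR 0.40), for Msr1 2.41 ± 1.14 (FDR 0.39) and for Cybb 0.20 ± 0.63 (FDR 0.97). In the thalamus and hypothalamus 0 of 8 genes tested differed between times (0.00582% and 0.0% of genes called; 1 and 0 of the 8 at an unadjusted p under 0.05, none by DESeq2). Time point, drug route and sequencing table go together in this comparison.

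In the thalamus and hypothalamus, edgeR without a block or covariate called none of the genes tested after injury at either time. In the thalamus at 3 dpi, 0 of 7 genes tested were called by that fit with 0.298% of 16762 genes called, 1 was at an unadjusted p under 0.05, and DESeq2 called 1, Lyz2. With replicate number as a block edgeR called 1 gene there, and with the choroid plexus level as a covariate also 1. Lyz2 there was at 6.79, 5.27, 5.6 and 4.01 CPM in Sham + VH and at 10.6, 11.8, 7.44 and 7.93 CPM in TBI + VH. The groups did not overlap for Lyz2, 1 of the 10 genes, against 1.52% of all genes tested, and its log2 fold change was 0.81 ± 0.19 (SE, n = 4 per group, edgeR FDR 0.10; DESeq2 FDR 0.0082). In the same comparison 7 of 10 genes common to all macrophages and 6 of 10 homeostatic microglia genes were called higher, Tyrobp by 0.84 ± 0.08 and Fcrls by 1.18 ± 0.15 on the log2 scale.

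In the hypothalamus at 3 dpi, 0 of 8 genes tested were called, with 0.0% of 16946 genes called, 2 at an unadjusted p under 0.05 and none called by DESeq2. Lyz2 was at 6.95, 7.30, 7.11 and 5.74 CPM in Sham + VH and at 9.13, 16.3, 8.33 and 9.15 CPM in TBI + VH, without overlap (log2 fold change 0.67 ± 0.25, SE, n = 4 per group, edgeR FDR 1). Ccr2 was at 0.140, 0.177, 0.176 and 0.227 CPM in Sham + VH and at 0.359, 1.04, 0.488 and 0.285 CPM in TBI + VH, also without overlap (log2 fold change 1.57 ± 0.61, SE, n = 4 per group, edgeR FDR 1). Such separation held for these 2 of the 10 genes and for 0.891% of all genes tested. Ccr2 passed the filter there with 2 sham libraries over its level, fewer than the 4 required. The injured replicate 2 was the highest of its group for 9 of the 10 genes and for 24.3% of all genes.

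At 29 dpi, with vehicle, 0 of 6 genes tested in the thalamus were called (0.0% of 16957 genes) and 0 of 8 in the hypothalamus (0.00583% of 17165 genes), with none at an unadjusted p under 0.05 in either region and none called by DESeq2. Lyz2 ran from 4.33 to 7.90 CPM in Sham + VH and from 6.27 to 9.28 CPM in TBI + VH of the thalamus. In the hypothalamus it ran from 5.27 to 7.56 CPM in Sham + VH and from 5.76 to 9.55 CPM in TBI + VH. The ranges overlapped in both regions.

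**Figure D3:**
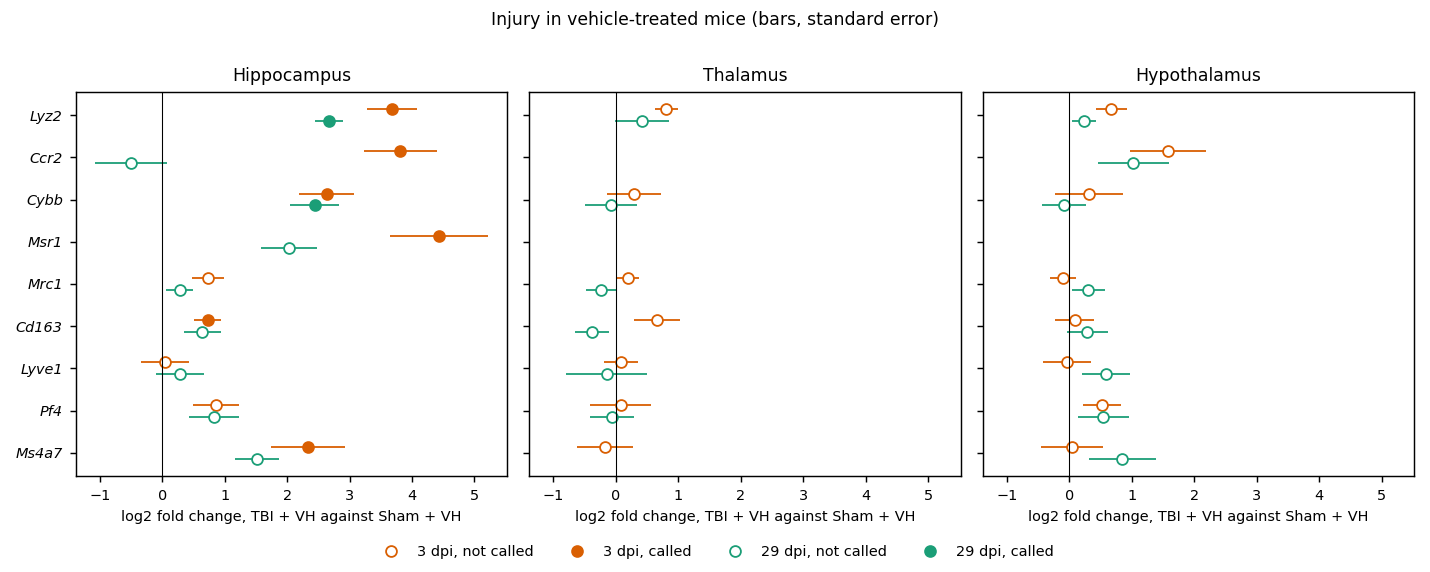
Log2 fold change of TBI + VH over Sham + VH (points, with SE bars) for the tested genes among 9 of the 10, by region and time; Cd5l, at 0 counts in most sham libraries, is not drawn, and a missing point is a gene under the filter there. The hippocampus at 3 dpi gave 3.68 for Lyz2 and 4.43 for Msr1, and the thalamus gave 0.81 for Lyz2.

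Whether the injury response differed between regions was tested in 1 edgeR fit of the 48 libraries of a time point, in which libraries of different regions were taken as independent. At 3 dpi, 2 of the 10 genes differed between hippocampus and thalamus, where 3.88% of 17788 genes did: Lyz2, by 2.85 ± 0.45 on the log2 scale (FDR 3.8e-05), and Msr1, by 4.05 ± 1.06 (FDR 0.017). Msr1 passed the filter of this fit through 8 injured libraries, with 0 of 24 sham libraries over its level of 0.415 CPM, so its call is a description. Between hippocampus and hypothalamus 2 differed, where 5.82% of genes did: Lyz2, by 3.00 ± 0.44 (FDR 4.3e-06), and Cybb, by 2.30 ± 0.69 (FDR 0.032). The Cybb call was lost in 9 of 16 fits that left out 1 library (1.94 to 2.95, FDR 0.0049 to 0.11), and that of Msr1 without Thalamus Sham + VH replicate 1 (FDR 0.14). Cybb was also not called with libraries of the same group and number blocked across regions.

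Without Hippocampus TBI + VH replicate 2, 5 of the 10 genes differed between hippocampus and thalamus (5.09% of all genes) and 4 between hippocampus and hypothalamus (6.71%), Msr1 among both and Ccr2, also short of 4 sham libraries over the filter's level, among the former. At 29 dpi edgeR called 1 gene between hippocampus and hypothalamus, Lyz2, at 2.44 ± 0.46 (FDR 0.013; 0.0558% of 17935 genes called), and DESeq2 called Cybb as well. The Lyz2 call was lost without Hippocampus Sham + VH replicate 3, Hippocampus TBI + VH replicate 4 or Hypothalamus TBI + VH replicate 3 (FDR up to 0.080), and Cybb was called without Hippocampus Sham + VH replicate 1 or Hypothalamus TBI + VH replicate 1. The Lyz2 difference between hippocampus and thalamus at that time was 2.25 ± 0.47 (FDR 0.073), and 0 of 9 genes were called there with 0.0223% of genes called, 4 of the 9 at an unadjusted p under 0.05 and 2 called by DESeq2, Lyz2 and Cybb. Between thalamus and hypothalamus 0 genes were called at either time (0.0% of genes at 3 dpi and 0.00558% at 29 dpi; none of the 10 at an unadjusted p under 0.05, none by DESeq2).

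Levels in Sham + VH mice were compared between each pair of regions at each time. Of the 10 genes, 1 was called in 1 of these 6 comparisons: Lyve1 was higher in the hippocampus than in the hypothalamus at 29 dpi (1.19 ± 0.52 on the log2 scale, FDR 0.049; 45.0% of 17935 genes called). DESeq2 called none there, and the call was lost on leaving out any 1 of 4 of the 8 libraries. None of the 10 was called in the other 5 comparisons. Of all genes, 40.9% were called between hippocampus and thalamus, 46.7% between hippocampus and hypothalamus and 28.6% between thalamus and hypothalamus at 3 dpi, and 39.3% and 32.9% for the pairs with thalamus at 29 dpi.

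Candesartan was considered in the hippocampus first through TBI + CD against Sham + VH and then against its own control, Sham + CD. The first of these shares its Sham + VH libraries with the vehicle comparison above. At 3 dpi, 9 of the 10 genes were called higher in TBI + CD than in Sham + VH (12.1% of genes called) and 9 higher than in Sham + CD (20.1% of genes called), the exception being Lyve1 in both. Cd5l, Ccr2 and Msr1 are among the 9, having passed the filter as above. With the choroid plexus level as a covariate 7 were called against Sham + VH (7.32% of genes), the calls of Pf4 and Ms4a7 being lost, and 9 against Sham + CD. Groups did not overlap for 7 of the 10 genes against Sham + VH (11.6% of all genes) and for 8 against Sham + CD (15.3%). Cd5l, Ccr2 and Msr1 are among both, so these counts are descriptions.

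Lyz2 in TBI + CD was at 61.5, 55.2, 137 and 118 CPM at 3 dpi, and in Sham + CD at 6.44, 5.10, 3.97 and 5.65 CPM. The log2 fold change within candesartan was 4.18 ± 0.43 (SE, n = 4 per group). Msr1 was at 2.33, 1.42, 13.1 and 5.33 CPM in TBI + CD and at 0.0488, 0.130, 0.106 and 0.137 CPM in Sham + CD (log2 fold change 5.69 ± 0.83). Replicate 3 of TBI + CD was the highest injured library for both genes.

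Ccr2 was at 1.12, 1.21, 2.26 and 1.56 CPM in TBI + CD and at 0.146, 0.130, 0.0529 and 0 CPM in Sham + CD at 3 dpi (log2 fold change 4.18 ± 0.57). Cybb was at 3.01, 2.83, 3.24 and 6.02 CPM in TBI + CD and at 0.830, 0.302, 0.371 and 0.228 CPM in Sham + CD (log2 fold change 3.18 ± 0.47). Cd5l was at 30, 51, 169 and 174 counts in TBI + CD and at 0 in all Sham + CD libraries, at least 125-fold higher over the floor of 3 counts per group. For these 3 genes too, injured and sham libraries did not overlap.

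Of the border genes with candesartan at 3 dpi, Mrc1 was at 5.25, 3.33, 6.25 and 8.32 CPM in TBI + CD and at 3.27, 2.07, 2.28 and 2.19 CPM in Sham + CD (log2 fold change 1.29 ± 0.26, SE, n = 4 per group, edgeR FDR 0.0011). Cd163 was at 1.65, 1.25, 1.24 and 1.64 CPM in TBI + CD and at 0.781, 0.735, 0.794 and 0.683 CPM in Sham + CD (0.99 ± 0.22, FDR 0.0025). Ms4a7 was at 0.923, 1.04, 2.07 and 3.28 CPM in TBI + CD and at 0.244, 0.130, 0.476 and 0.546 CPM in Sham + CD (2.45, FDR 0.0057). All 3 of these were free of overlap.

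Pf4 was at 0.680, 0.624, 2.15 and 0.942 CPM in TBI + CD and at 0.634, 0.648, 0.423 and 0.410 CPM in Sham + CD at 3 dpi, with replicate 3 alone far above the rest. Its log2 fold change of 1.11 was called (FDR 0.029) but not without TBI + CD replicate 3, nor without Sham + CD replicate 3 or 4 (FDR up to 0.19). Against Sham + VH the Pf4 call (FDR 0.046) was lost in 6 of 8 such fits, and that of Ms4a7 (FDR 0.013) without TBI + CD replicate 4 (FDR 0.056). Lyve1 was at 0.729, 0.250, 1.02 and 0.778 CPM in TBI + CD and at 0.634, 0.432, 0.476 and 0.228 CPM in Sham + CD, with overlap (0.71 ± 0.38, FDR 0.17).

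TBI + CD against TBI + VH asked directly whether the drug moved the genes in injured mice. At 3 dpi 0 of 10 genes were called in the hippocampus, with 0.0% of 16756 genes called, none of the 10 at an unadjusted p under 0.05 and none called by DESeq2. The log2 differences were -0.02 ± 0.34 for Lyz2, 0.53 ± 0.38 for Ccr2, 0.06 ± 0.37 for Cybb, 0.71 ± 0.52 for Msr1 and 0.43 ± 0.25 for Mrc1 (FDR 1 each). In sham mice at 3 dpi the drug gave 0 of 10 calls (1.5% of genes called; none of the 10 at an unadjusted p under 0.05, none by DESeq2). The test of whether the injury response itself differed with the drug also gave 0 of 10 (0.0% of genes; none at an unadjusted p under 0.05, none by DESeq2).

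At 29 dpi in the hippocampus, TBI + CD was at 21.5, 28.1, 23.0 and 20.3 CPM for Lyz2, and every one of these libraries lay below every TBI + VH library (28.9 to 52.8 CPM). Cybb was at 1.74, 1.65, 1.71 and 1.22 CPM in TBI + CD, likewise below every TBI + VH library (2.03 to 3.96 CPM). Such separation held for these 2 of the 10 genes and, in that direction, for 1.49% of all genes tested.

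The log2 difference for Lyz2 was -0.94 ± 0.20 (SE, n = 4 per group) with an unadjusted edgeR p of 0.00023 and an FDR of 0.75. That of Cybb was -0.91 ± 0.34 with an unadjusted edgeR p of 0.015 and an FDR of 0.88. In this comparison edgeR called 0 of 9 genes and 0.0% of 16832 genes, 2 of the 9 were at an unadjusted p under 0.05, and DESeq2 called 1, Lyz2 (-0.93, FDR 0.050, under the threshold before rounding). Leaving out single libraries gave -1.09 to -0.84 for Lyz2 and -1.03 to -0.70 for Cybb with edgeR, none called. The test of whether the injury response differed with the drug gave 0 of 9 calls (0.0% of genes, 3 of the 9 at an unadjusted p under 0.05, none by DESeq2), with -0.74 ± 0.32 for Lyz2, 0.91 ± 0.30 for Mrc1 and 2.61 ± 0.95 for Ccr2 (FDR 0.89 each). The Ccr2 value draws on a Sham + CD group with 6 counts in replicate 3 and 0 in its other libraries.

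**Figure D4:**
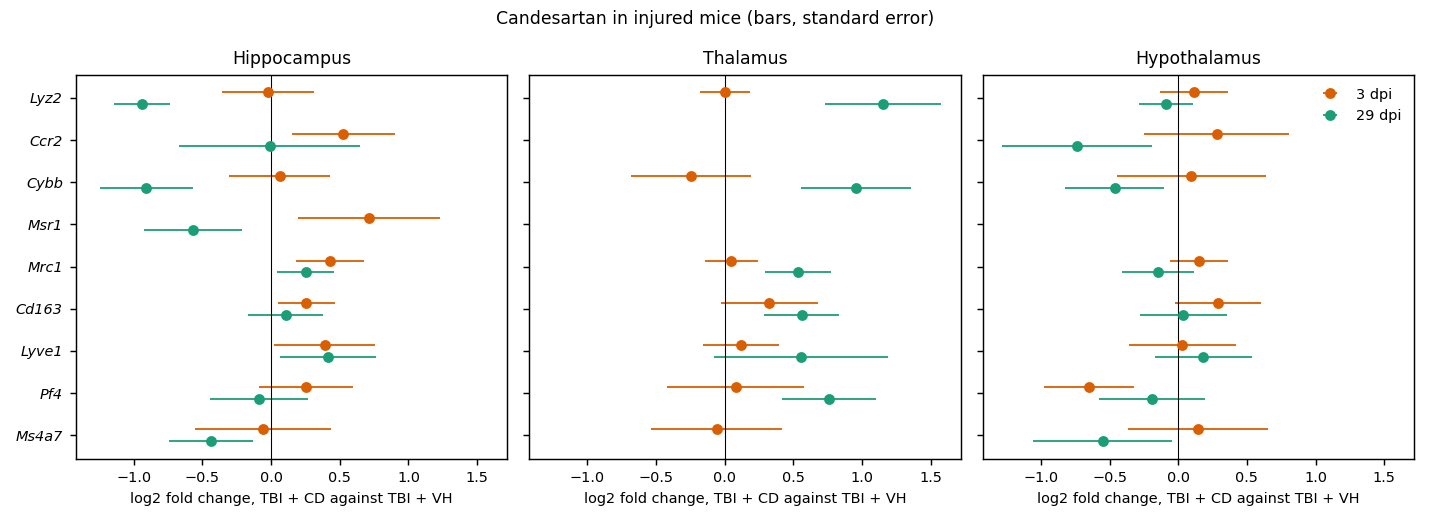
Log2 difference of TBI + CD over TBI + VH (points, with SE bars) for 9 of the 10 genes by region and time; Cd5l is not drawn, and a missing point is a gene under the filter there. Lyz2 in the hippocampus was at -0.02 at 3 dpi and at -0.94 at 29 dpi, and no point shown was called by edgeR.

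Compared with sham mice at 29 dpi, edgeR called 1 gene in TBI + CD against Sham + VH, Lyz2 (1.73 ± 0.23, FDR 0.0039; 0.119% of genes called), and DESeq2 called Lyz2 and Cybb. Within candesartan, Lyz2 (1.93 ± 0.23, FDR 0.00089) and Mrc1 (1.19 ± 0.22, FDR 0.021) were called, where 0.356% of genes were. All 9 genes tested were at an unadjusted edgeR p under 0.05 there, and DESeq2 called 4 of the 10 (0.726% of genes). Sham + CD libraries were at 5.38, 4.78, 8.54 and 5.50 CPM for Lyz2. Mrc1 was at 4.71, 7.69, 6.17 and 3.97 CPM in TBI + CD and at 2.61, 1.95, 2.69 and 2.81 CPM in Sham + CD, without overlap, and its call was lost in 6 of 8 fits that left out 1 library (FDR up to 0.12). Choroid plexus epithelium genes summed to 3925, 2545, 620 and 232 CPM in these TBI + CD libraries and to 144, 77.8, 4293 and 200 CPM in Sham + CD. With their level as a covariate Mrc1 was again called (1.08 ± 0.20, FDR 0.022). With replicate number as a block Mrc1 was not called, and 1 of the 10 genes was (0.386% of genes).

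Ccr2 in the 29 dpi Sham + CD hippocampus was at 0, 0, 0.195 and 0 CPM, below most Sham + VH libraries (0.134 to 0.588 CPM), with a log2 difference of -2.62 ± 0.73 (SE, n = 4 per group, edgeR FDR 0.94). The Sham + CD level rests on 6 counts in replicate 3. Against that group, the log2 fold change of Ccr2 in TBI + CD ran from 1.62 to 5.74 on leaving out single libraries. Candesartan in sham mice at 29 dpi gave 0 of 9 calls (0.0% of genes, 2 of the 9 at an unadjusted p under 0.05, none by DESeq2). All TBI + CD libraries lay above all controls for 5 of the 10 genes against Sham + VH (2.59% of all genes) and for 6 against Sham + CD (4.29%). Both counts take in Cd5l, which was not tested. They also take in Msr1 and Ms4a7, which would not have passed the filter on the sham libraries alone, so they are descriptions.

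In the thalamus at 29 dpi, 1 library stood apart. TBI + CD replicate 4 held 41.9 CPM of Lyz2 against 7.80 to 12.1 CPM in the other 3 libraries of its group, and it was the highest of the group for 9 of the 10 genes and for 35.1% of all genes. The same library had 685 CPM summed over genes common to all macrophages (234 to 338 CPM in the others) and 1498 CPM summed over choroid plexus epithelium genes (61.2 to 94.2 CPM in the others); the part of either in these values was not tested. For TBI + CD against Sham + VH, the log2 fold change of Lyz2 was 1.57 ± 0.43 with it and 0.68 ± 0.22 without it (edgeR FDR 0.65 and 1).

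With candesartan, none of the 10 genes was called in the thalamus or hypothalamus at either time by edgeR without a block or covariate. This held in injured mice, in sham mice and for the injury response. At most 0.418% of genes were called in any of these comparisons, 0 to 4 of the genes were at an unadjusted p under 0.05, and DESeq2 called 1 gene in 1 of them. Against Sham + VH in the thalamus at 3 dpi (0.418% of genes called) the log2 fold change of Lyz2 was 0.81 ± 0.19 (edgeR FDR 0.088; that call by DESeq2, FDR 0.0055), and 2 of the 7 genes tested were at an unadjusted p under 0.05. For that comparison edgeR called 1 gene with replicate number as a block and 1 with the choroid plexus level as a covariate. Of 8 fits that left out 1 library, 1 called Lyz2 (edgeR FDR 0.021). Within candesartan in the thalamus at 3 dpi (0.179% of genes called) the log2 fold change of Lyz2 was 0.61 ± 0.19 (edgeR FDR 0.37). For TBI + CD against TBI + VH in the thalamus at 29 dpi (0.0% of genes called) 4 of 6 genes were at an unadjusted p under 0.05, Lyz2, Cybb, Mrc1 and Pf4, at 1.15 ± 0.42, 0.96 ± 0.40, 0.53 ± 0.24 and 0.76 ± 0.34 (FDR 1 each), with replicate 4 included and none called by DESeq2.

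Genes of the same pathways and cell types, from lists drawn up beside the 10, were counted in TBI + VH against Sham + VH in the hippocampus at 3 dpi, where 10.7% of all genes tested were called. Of the 4 ligands of Ccr2 listed, 3 were tested and called higher, Ccl12 by 3.67, Ccl8 by 3.28 and Ccl2 by 2.75 on the log2 scale, but all 3 passed the filter on low counts through the injured libraries, with no sham library over its level, so that count is a description. All 5 partners of Cybb in the NADPH oxidase rose, Rac2 by 2.68, Ncf4 by 2.18 and Ncf1 by 2.08. Of other infiltrating monocyte genes 4 of 9 rose, with S100a4 at 3.90, Gpnmb at 3.30 and Cd44 at 2.73, and of other border macrophage genes 4 of 9, with Siglec1 at 3.13, Stab1 at 1.96 and Folr2 at 1.81. The sham libraries alone would not have carried 3 of these 9 monocyte genes and 4 of these 9 border genes past the filter, Siglec1 and Folr2 among the latter, whereas all 5 oxidase partners passed on them.

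Other Ms4a family genes rose in 4 of 4 tested, Ms4a6c by 3.68, Ms4a6d by 3.07 and Ms4a4c by 2.58, of which Ms4a4c had no sham library over the filter's level. Other scavenger receptors rose in 2 of 6, Cd68 by 2.31 and Clec4n, also with no sham library over that level, by 2.08, and lysozyme and haemoglobin clearance partners in 1 of 3, Hmox1, the haem-degrading enzyme, by 2.17. No gene of these lists fell. Against Sham + VH, TBI + CD had 8 of 9 infiltrating monocyte genes and 7 of 9 border macrophage genes called higher in the same region and time, where 12.1% of all genes were called. TBI + CD against TBI + VH called 0.0% of all genes there, so no difference between these counts is shown.

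At 29 dpi, with vehicle, 0.529% of all genes were called in the hippocampus, and no difference between the times was tested for these lists. Their calls there were as follows: S100a4 (2.0), Gpnmb (2.33) and Cd44 (1.10) of 6 infiltrating monocyte genes, Siglec1 (2.37) of 9 border macrophage genes, Cyba (0.84) of 5 oxidase partners and Cd68 (1.01) of 5 scavenger receptors were higher on the log2 scale. No ligand of Ccr2 passed the filter on low counts there. Of the 9 border macrophage genes tested, 4 would not have passed it on the sham libraries alone, so their count is a description.

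Markers of other cells were read in the same hippocampus libraries at 3 dpi. All 10 genes common to all macrophages rose (Adgre1 by 2.63, C1qb and C1qc by 2.24) and so did all 10 homeostatic microglia genes (Fcrls by 2.53, Olfml3 by 1.99, Gpr34 by 1.43). The macrophage list summed to 283 to 300 CPM in Sham + VH and to 774 to 1267 CPM in TBI + VH, and the microglia list to 277 to 294 and 538 to 854 CPM. The part of microglia in the rise of Lyz2, Cybb and Msr1 was not tested.

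Of 9 neutrophil genes 1 could be tested, S100a8, and it changed by -0.06 on the log2 scale; the list summed to 0.658 to 1.11 CPM in Sham + VH and to 0.609 to 1.82 CPM in TBI + VH. Of 8 lymphocyte genes 1 could be tested, Cd79b, which was higher by 2.53 and passed the filter with 8 injured libraries and 1 sham library over its level, with sums of 0.394 to 0.676 and 1.02 to 1.41 CPM. None of 3 platelet genes and 3 red blood cell genes tested was called, and of 8 endothelial genes Kdr fell by 0.75.

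Choroid plexus epithelium genes differed between the groups in the opposite direction. All 12 were lower in TBI + VH than in Sham + VH, with a median log2 fold change of -4.93. Replicates 1 to 4 of Sham + VH had summed levels of 7162, 4708, 227 and 4991 CPM, and those of TBI + VH 28.1, 183, 92.5 and 61.9 CPM. It was 69.2, 74.5, 131 and 109 CPM in Sham + CD and 2852, 50.4, 27.9 and 181 CPM in TBI + CD. Choroid plexus also holds border macrophages, and 2 of 8 fibroblast genes, Igf2 (-2.56) and Ogn (-1.78), were lower as well.

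With the mean log2 CPM of the choroid plexus list as a covariate, 3 of the 10 genes were called in TBI + VH against Sham + VH: Lyz2 (3.10, FDR 0.0039), Ccr2 (3.28, FDR 0.021) and Cybb (2.48, FDR 0.042). In that fit 3.62% of all genes were called, against 10.7% without the covariate. Msr1 (3.09, FDR 0.10), Cd5l (FDR 0.051), Ms4a7 (1.87, FDR 0.35) and Cd163 (0.79, FDR 0.25) were not. Within candesartan, where Sham + CD held little choroid plexus RNA, 9 of the 10 were called with the covariate (20% of all genes) and without it, and 9 without TBI + CD replicate 1 (18.9% of all genes).

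**Figure D5:**
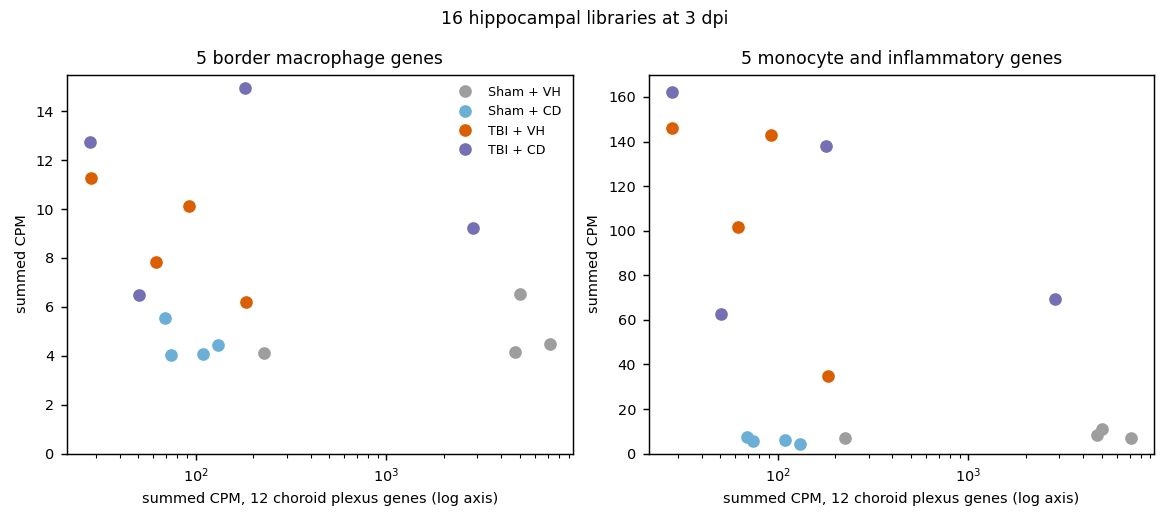
Summed level of 12 choroid plexus epithelium genes (CPM on a log axis) in the 16 hippocampus libraries at 3 dpi (points, coloured by group). It is drawn against the summed CPM of the 5 border macrophage genes and, beside it, of the 5 monocyte and inflamed macrophage genes. At 3 dpi 3 of the 4 Sham + VH libraries sat between 4708 and 7162 CPM and all TBI + VH libraries between 28.1 and 183 CPM.

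The genes whose pattern was most like that of 9 of the 10 genes were found by Pearson's r of mean log2 CPM over the 24 groups, among 17932 genes; the points share libraries and the hippocampus at 3 dpi, so r is a description only. For Lyz2 they were Ptprc (0.969), Lilrb4 (0.962) and Fcgr2b (0.961). For Cybb they were Cd300lb (0.946), Lyz2 (0.932) and Lilrb4 (0.922), and for Ms4a7 Lyz2 (0.947), S100a4 (0.931) and Cd22 (0.930). Msr1 and Cd5l were each other's closest gene (0.980), each followed by Vim.

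Ccr2 was most like Eif2ak2 (0.901), H2-Eb1 (0.888) and Tlr2 (0.883), none of them among the 10. Mrc1 was most like Cp (0.877), and Cd163 was most like C3 (0.849) and then Mrc1 (0.811). Lyve1 had no close match, the highest being Sult1a1 (0.681).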

How the data were processed

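RNA of 96 libraries (TruSeq Stranded mRNA kit, 75-base reads) had been aligned by the authors with MapSplice to mm10 and counted per gene with HTSeq 0.9.1; the deposited tables, 1 per time point, hold raw counts, 4 libraries per group. The strand setting, the annotation and the rule for reads on overlapping genes are not given in the sources used here. Samples were grouped from their labels, which do not tie the libraries of different regions to animals, so p-values measure the spread between libraries. Counts were tested with edgeR 4.0.16 (R 4.3.3; filterByExpr, TMM, quasi-likelihood F test, 2-sided, Benjamini-Hochberg over all genes): 16 libraries of a region and time with all 4 groups, 48 of a time point for differences between regions, 32 of a region for differences between times. DESeq2 1.42.0, RLE factors, no filter on low counts, FDR alone, only the libraries compared, a replicate block, a choroid plexus covariate and each library left out in turn were alternatives. CPM are counts over TMM-scaled library totals, log2 CPM has a prior count of 2, and per-kb values use GENCODE exon unions of GRCm38. The scripts were tested on simulated counts. All 10 genes are named; of other lists, the 3 largest changes among called genes. The 10 genes and the lists were chosen with earlier results of these data known. Folds over a floor of 3 counts cover counting error only. Low-count genes carry the least precision: at 29 dpi totals fell to 6663629 counts.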

Additional observations from a re-analysis of the deposited data

Results flagged for a closer look

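Single libraries far from the other 3 of their group (Dixon's 95% limit for 4 samples) were found in 26 of 234 groups of a gene and condition, where chance gives about 1 in 20, or 11.7. Of these, 8 are Cd5l with 1 count in 1 library and 0 in the other 3, in thalamus and hypothalamus groups: 0.0428, 0.0349, 0.0407, 0.0308, 0.0538, 0.0586, 0.0264 and 0.0341 CPM. A group with a single library above 0 is flagged whatever its count, as is Ccr2 in the 29 dpi Sham + CD hippocampus (6 counts in replicate 3).

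In the thalamus at 29 dpi, TBI + CD replicate 4 was high for Lyz2 (41.9 CPM), Ccr2 (0.645 CPM) and Cybb (1.83 CPM). In the hypothalamus at 3 dpi, TBI + VH replicate 2 was high for Lyz2 (16.3 CPM) and Ms4a7 (0.637 CPM), and Sham + CD held Ms4a7 at 0.480 CPM in replicate 1 and Ccr2 at 0.949 CPM in replicate 2. In the hypothalamus at 29 dpi, Ccr2 was at 1.03 CPM in TBI + VH replicate 1, and Sham + VH held Cybb at 1.41 CPM in replicate 2 and Msr1 at 0.342 CPM in replicate 4 (7 counts).

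In the hippocampus at 3 dpi, Mrc1 was at 3.27 CPM in Sham + CD replicate 1 and Cybb at 6.02 CPM in TBI + CD replicate 4. At 29 dpi, Ccr2 was at 0.195 CPM in Sham + CD replicate 3 and Cybb was low, at 1.22 CPM, in TBI + CD replicate 4. In the thalamus, Mrc1 was at 3.70 CPM in TBI + VH replicate 4 at 29 dpi; at 3 dpi Lyve1 was at 0.774 CPM in TBI + VH replicate 3, Pf4 at 0.786 CPM in Sham + VH replicate 1 and Msr1 at 0.343 CPM (8 counts) in TBI + CD replicate 3.

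The injury response with vehicle differed between regions or times by edgeR's test of the difference itself for 6 results, in log2 units. Hippocampus exceeded thalamus at 3 dpi by 2.85 for Lyz2 and 4.05 for Msr1, the latter a description, since Msr1 passed the filter on low counts through injured libraries alone. Hippocampus exceeded hypothalamus by 3.00 for Lyz2 and 2.30 for Cybb at 3 dpi and by 2.44 for Lyz2 at 29 dpi. In the hippocampus, 3 dpi exceeded 29 dpi by 4.30 for Ccr2, which would not have passed the filter on the sham libraries alone. Its Sham + VH libraries also ran higher at 29 dpi than at 3 dpi.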

How the results depend on the processing

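Under alternatives other than leaving out a library, 301 counts of called genes were within 1.5 times the main count and 17 were not. With DESeq2, 1 gene was called for candesartan in injured hippocampus at 29 dpi (edgeR 0), 2 for TBI + CD against Sham + VH there (edgeR 1), 4 for injury within candesartan there (edgeR 2), 1 each for TBI + VH and TBI + CD against Sham + VH in the thalamus at 3 dpi (edgeR 0), 4 for each hippocampal difference from another region at 3 dpi (edgeR 2), 2 for each at 29 dpi (edgeR 1 against hypothalamus and 0 against thalamus), and 0 for Lyve1 between sham hippocampus and hypothalamus, which was also 0 without the filter on low counts (edgeR 1). With the choroid plexus covariate, injury with vehicle gave 3 genes in the hippocampus at 3 dpi (main 7), and both thalamus comparisons gave 1.

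Replicate numbers did not pair the libraries: same-numbered libraries of a region correlated at -0.57 to 0.68 in their deviations from group means, with medians of 0.00089 to 0.11 by region and time. Between regions of a treatment group the medians were 0.048 at 3 dpi and 0.077 at 29 dpi for the same number, and -0.015 and -0.031 for other numbers, which bears on the fits that took regions as independent; with the block across regions Cybb was not called between hippocampus and hypothalamus at 3 dpi (FDR 0.086), and Msr1 was (FDR 0.027), a gene that passed the filter through injured libraries alone. The replicate block gave 1 gene in each of the same 2 thalamus comparisons and 1 for injury within candesartan in the hippocampus at 29 dpi, where Mrc1 was not called (FDR 0.050, above the threshold before rounding). With the block, Lyve1 after injury with vehicle at 3 dpi in the hippocampus was -0.0144, and for candesartan in injured mice there Lyz2 was 0.0165 and Ms4a7 0.00758; with the choroid plexus covariate these last were 0.0962 and 0.0312. All 5 are reversals of values that were not called.

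Leaving out each library in turn gave 5 to 8 genes for injury with vehicle in the hippocampus at 3 dpi (5 without TBI + VH replicate 3), 7 to 9 for TBI + CD against Sham + VH, 8 to 10 within candesartan, and 1 to 3 within candesartan at 29 dpi. It gave 0 to 1 for TBI + CD against Sham + VH in the thalamus at 3 dpi, and for the hippocampus 1 to 5 against thalamus and 1 to 4 against hypothalamus at 3 dpi, and 0 to 1 and 0 to 2 at 29 dpi. Sham + VH regions gave 0 to 1 in 4 of their 6 comparisons. Signs turned for uncalled values. For candesartan in injured hippocampus at 29 dpi these were Ccr2 (-0.35 to 0.25), Cd163 (-0.039 to 0.28) and Pf4 (-0.40 to 0.087). At 3 dpi they were Cd5l (-0.25 to 0.58), Cybb (-0.25 to 0.41), Lyz2 (-0.31 to 0.18), Ms4a7 (-0.49 to 0.29), Msr1 (-0.16 to 1.03) and Pf4 (-0.31 to 0.46). Lyve1 after injury with vehicle ranged from -0.14 to 0.20 at 3 dpi and from -0.11 to 0.59 at 29 dpi, and Lyz2 within candesartan in the 29 dpi hypothalamus from -0.18 to 0.12. A prior count of 0.5 moved 47 of 240 mean log2 CPM values by more than 1 SD. The causes of these changes were not tested.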
